A study of Saccharomyces cerevisiae with 12 samples.

Results

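NOB1 and 8 other genes encode factors, though not all of them, that finish the small ribosomal subunit of budding yeast. Their transcripts were compared between a strain lacking ZTA1 (∆zta1) and its wild type, FY834α. The 9 genes were chosen by name and function, as probes annotated to NOB1 and to factors that mature the 20S pre-rRNA in late pre-40S particles, out of 5594 genes measured. All 9 were found, each with 1 probe. NOB1 headed the choice because its strain ratio was already known to be high in both treatments, so that ratio is described here without a test.

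In yeast the last precursor of the small-subunit rRNA leaves the nucleus as 20S pre-rRNA inside a pre-40S particle. In the cytoplasm the endonuclease Nob1 cuts it at site D, which forms the mature 3′ end. The other factors hold the particle in an inactive state, modify or check it, and leave in order before the subunit can translate.

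ZTA1 (YBR046C) encodes the yeast zeta-crystallin, which reduces quinones and, by the title of the series, binds AU-rich elements. RNA came from cultures in exponential growth in YPD, either exposed for 30 min to hydrogen peroxide (H2O2, 10 mM) or untreated. In each treatment 3 biological pairs of ∆zta1 and wild type were hybridised on 2-colour arrays, each pair on 2 arrays with the dyes swapped. No array set treated against untreated RNA, so each value below is a log2 ratio of ∆zta1 over wild type and gives neither the level of a transcript nor its response to peroxide. The labels do not say how ZTA1 was deleted or how many clones were used.

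ZTA1 itself lay between -6.34 and -3.21 on the 12 arrays, so all 12 shared the same direction. That direction was itself read from ZTA1, so its sign is no separate check of the strain labels. In each H2O2 pair 4 genes exceeded a 2-fold ratio, against 5, 20 and 5 in the untreated pairs, where untreated replicate 2 stood apart. Of 7 a-cell and 5 alpha-cell genes, markers of the mating types, none passed the test in any comparison. Of all genes 0.215% passed under H2O2, 0.197% in untreated cells, 0.286% for the mean and 0% for the difference. A count of 0 therefore says little about these markers. The medians were -0.055 for a-cell and -0.092 for alpha-cell genes under H2O2, against 0.0084 and 0.046 in untreated cells. Ratios give no level, so the mating type itself could not be checked.

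NOB1 (YOR056C), the site D endonuclease, was higher in ∆zta1 on all 12 arrays. Under H2O2 its log2 ratio was 0.75, 0.71 and 0.71 in the 3 pairs, against 0.74, 0.58 and 0.75 in the untreated pairs. All 6 pairs were high, and untreated replicate 2 was the lowest. The mean was 0.72 ± 0.022 under H2O2 and 0.69 ± 0.093 in untreated cells (SD, n = 3 pairs each), which is a 1.65-fold and a 1.61-fold ratio. RNA came from whole cultures, so more cells carrying the transcript and more transcript per cell cannot be told apart. Single arrays ranged from 0.56 to 0.82. Among all genes the ratio of NOB1 ranked 2 from the highest under H2O2 and 3 in untreated cells.

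**Figure D1:**
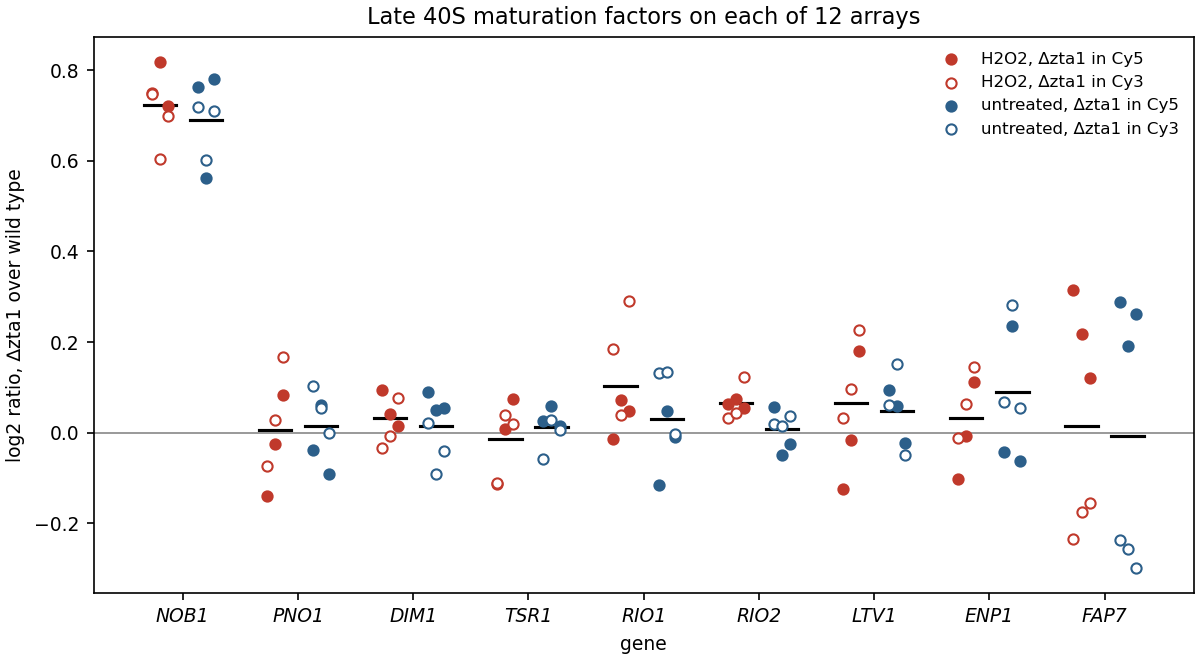
Log2 ratio of ∆zta1 over wild type (vertical axis) for the 9 genes (horizontal axis) on each of 12 arrays, H2O2 pairs to the left of untreated pairs, filled where ∆zta1 was labelled with Cy5 and open where it was labelled with Cy3; bars are means of 3 pairs. NOB1 lies between 0.56 and 0.82 on every array, while no array of the other 8 genes exceeds 0.32, and the FAP7 points split by dye.

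None of the other 8 factors showed a ratio near that of NOB1. Their highest value on any array was 0.32 and their highest pair value was 0.26, while the lowest array of NOB1 stood at 0.56. In every pair NOB1 exceeded each of the others, by at least 0.32 on the log2 scale (ENP1 in untreated replicate 2). The limma fit to the pair means covered every gene, and passing means an adjusted p (Benjamini-Hochberg) below 0.05. By that rule 0 of the 8 passed under H2O2, where 0.215% of all genes did, and 0 of 8 in untreated cells, where 0.197% did. For the mean of both treatments it was again 0 of 8, against 0.286% of all genes. So low a share among all genes means that these counts alone say little about the 8 factors, and their intervals say more. The highest upper 95% bound for the mean ratio was 0.15, or 1.11-fold, for ENP1. For a single treatment the highest was 0.18, or 1.13-fold, for RIO1 under H2O2, and 0.21, or 1.16-fold, for ENP1 in untreated cells.

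As a list, the 8 factors had a median ratio of 0.032 under H2O2 and 0.014 in untreated cells, against -0.0023 and 0.00052 over all genes. For the mean of both treatments 7 of 8 were above 0, against 2697 of 5594 genes. Most genes in the lists of other ribosome assembly factors and rRNA nucleases, given below, were above 0 too. RIO1, ENP1 and LTV1, at 0.067, 0.061 and 0.057, lay above the 95th percentile of all genes, which was 0.053, and ranked 116, 174 and 220 from the highest. These positions come without a test of the list.

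PNO1 (YOR145C, also called DIM2), a KH-domain protein that binds the pre-rRNA near site D and is the direct partner of Nob1, had pair ratios on either side of 0. They were -0.11, 0.0022 and 0.13 under H2O2, against 0.032, 0.058 and -0.046 in untreated cells. The mean of both treatments was 0.011 (95% interval -0.061 to 0.082, limma adjusted p = 0.924). DIM1 (YPL266W), which dimethylates adenosines near the mature 3′ end of the rRNA, was more uniform. Its pair ratios were 0.031, 0.017 and 0.046 under H2O2, against 0.056, -0.020 and 0.0069 in untreated cells. The mean was 0.023 (95% interval -0.024 to 0.069, adjusted p = 0.712). For both genes the upper bound lay far below the ratio of NOB1.

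TSR1 (YDL060W), a GTPase-like protein that occupies the place of a translation initiation factor on the particle, had the mean nearest to 0 of the 9 genes. Its pair ratios were -0.11, 0.023 and 0.047 under H2O2, against -0.016, 0.044 and 0.0096 in untreated cells. The mean of both treatments was -0.00074 (95% interval -0.060 to 0.058, limma adjusted p = 0.995).

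The atypical kinases of the RIO family act as ATPases in the last cytoplasmic steps, and their genes had mean ratios slightly above 0. RIO1 (YOR119C) stood at 0.085, 0.056 and 0.17 under H2O2, against 0.0090, 0.090 and -0.0060 in untreated cells. Its mean under H2O2 was 0.10 ± 0.058 (SD, n = 3 pairs, unadjusted p = 0.0154, limma adjusted p = 0.592), and it did not pass. RIO2 (YNL207W) stood at 0.048, 0.059 and 0.089 under H2O2, against 0.038, -0.017 and 0.0066 in untreated cells. Its H2O2 pairs all lay above its untreated pairs, and its mean under H2O2 was 0.065 ± 0.021 (unadjusted p = 0.047, limma adjusted p = 0.598). Of the 8 factors other than NOB1 these 2 had an unadjusted p under 0.05 under H2O2, where 464 of 5594 genes had one.

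FAP7 (YDL166C), an ATPase that binds the ribosomal protein Rps14 and is needed for the cut at site D, was close to 0 once the 2 arrays of a pair were averaged. Its pair ratios were 0.040, 0.022 and -0.017 under H2O2, against 0.026, -0.033 and -0.018 in untreated cells. The single arrays did not show this. With ∆zta1 in Cy5 they lay between 0.12 and 0.32, and with ∆zta1 in Cy3 between -0.30 and -0.15. In each of the 6 pairs the sign of FAP7 differed between the dye orientations. The dye part, the difference between the 2 arrays of a pair divided by 2, averaged 0.23 for FAP7 and ranked 147 by size among all genes. For NOB1 it averaged 0.026 (SD 0.044 over 6 pairs), below the median size of 0.054 over all genes, and NOB1 averaged 0.73 on the arrays with the mutant in Cy5, against 0.68 on those with the mutant in Cy3.

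**Figure D2:**
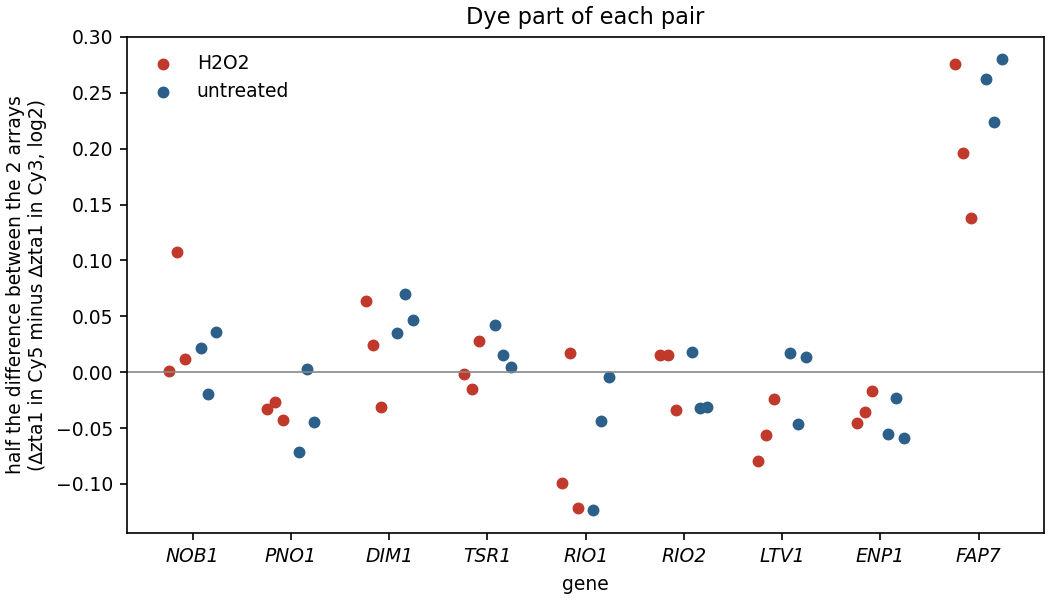
Log2 difference between the 2 arrays of each pair, divided by 2, Cy5-labelled minus Cy3-labelled ∆zta1 (vertical axis), for the 9 genes (horizontal axis), with a point per pair and H2O2 pairs to the left of untreated pairs. All 6 FAP7 pairs are positive, with a mean of 0.23, while the mean for NOB1 is 0.026.

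LTV1 (YKL143W) and ENP1 (YBR247C) encode partner proteins bound to Rps3 at the head of the particle, which are released after phosphorylation. LTV1 stood at -0.046, 0.040 and 0.20 under H2O2, against 0.078, 0.10 and -0.036 in untreated cells. ENP1 stood at -0.057, 0.028 and 0.13 under H2O2, against 0.012, 0.26 and -0.0037 in untreated cells. Each had 4 of 6 pairs above 0, and the means of both treatments were 0.057 for LTV1 (95% interval -0.021 to 0.14) and 0.061 for ENP1 (-0.028 to 0.15). The limma adjusted p-values were 0.611 and 0.627. Without H2O2 replicate 3 the mean of LTV1 was 0.023 and that of ENP1 0.038. Without untreated replicate 2 the mean of ENP1 was 0.019, and its untreated mean, 0.089 with all pairs, was 0.0041.

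The 8 factors other than NOB1 did not all move alike between pairs. Of the 8, 5 had their highest ratio in H2O2 replicate 3 (PNO1, TSR1, RIO1, RIO2 and LTV1), and 4 had their lowest in H2O2 replicate 1 (PNO1, TSR1, LTV1 and ENP1). Another 3, DIM1, RIO2 and FAP7, had their lowest in untreated replicate 2, where ENP1 was highest. The median of the 8 was -0.0076, 0.026 and 0.11 in the H2O2 pairs, against 0.029, 0.051 and -0.0049 in the untreated pairs. The median of 55 genes of the small subunit processome, the complex of the first steps of 40S assembly, was -0.045, 0.046 and 0.092 in the H2O2 pairs, against 0.037, 0.086 and -0.024 in the untreated pairs. Both medians were lowest in H2O2 replicate 1 and highest in H2O2 replicate 3, and both had untreated replicate 2 second. NOB1 had 0.75 in the pair where these medians were lowest and 0.71 where they were highest. The other lists, given below, matched this order only in part. H2O2 replicate 3 was highest for the other pre-40S factors, nucleases, late pre-60S factors and 40S protein genes, but lowest for proteasome genes (-0.047). Nucleases and late pre-60S factors were lowest in untreated replicate 3 (-0.022 each), and 40S protein genes in H2O2 replicate 2 (-0.10). Over all genes the median of a pair stayed between -0.0034 and 0.0023.

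The next comparison asked whether the strain ratio of these genes depends on peroxide. For NOB1 the ratio differed by 0.033 between H2O2 and untreated pairs (95% interval -0.087 to 0.15), and the pairs of the treatments overlapped. NOB1 was chosen for high ratios in both treatments, which favours a small difference, so this value is a description with no test. For the other 8 the difference ran from -0.056 for ENP1 to 0.072 for RIO1, with 5 of 8 above 0. The lowest interval bound among the 8 was -0.23 (ENP1) and the highest 0.18 (RIO1). None of these 8 passed in limma, and 0 of all 5594 genes did (0%), with 71 at an unadjusted p under 0.05, none of them among the 8. These intervals do not show that the ratios were alike in both treatments.

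**Figure D3:**
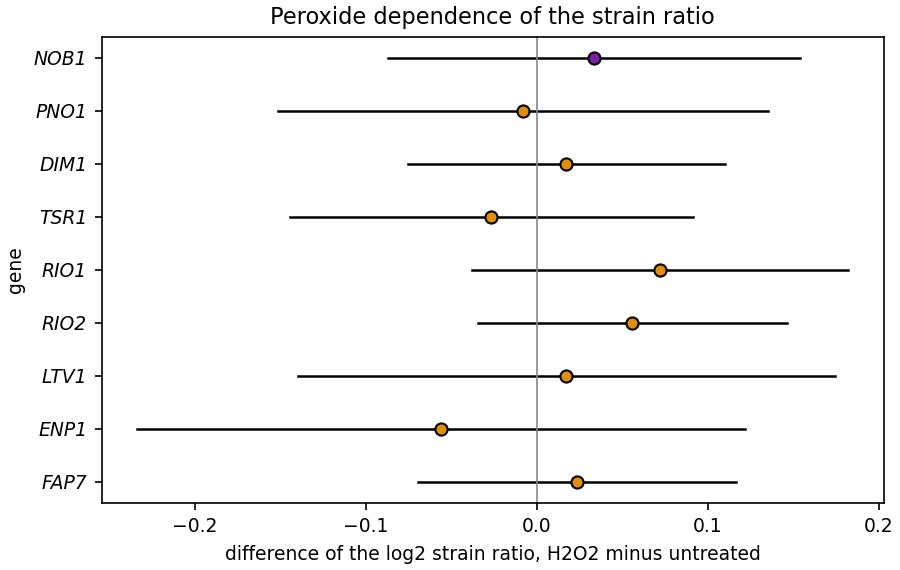
Difference of the log2 strain ratio, H2O2 minus untreated (horizontal axis), for the 9 genes (vertical axis), as limma estimates with 95% intervals over 3 pairs per treatment. The intervals of all genes other than NOB1 span 0. NOB1, chosen for high ratios in both treatments, stands at 0.033 and is described without a test.

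The genes beside NOB1 on its chromosome did not share its ratio. In the order of the RefSeq gene table (assembly R64) the 3 genes on one side are ETT1, TMC1 and VHS3, and on the other SGT1, ASE1 and a tRNA gene with no named probe. VHS3 (YOR054C), next to NOB1 and known for control of a protein phosphatase, had a ratio of 0.034 ± 0.051 under H2O2 and 0.027 ± 0.0063 in untreated cells (SD, n = 3 pairs each). SGT1 (YOR057W), which flanks NOB1 on its other side and encodes a co-chaperone of kinetochore assembly, had 0.0010 ± 0.063 under H2O2 and -0.017 ± 0.045 in untreated cells. All pair values of the 5 measured neighbours lay between -0.085 and 0.079, and none passed (smallest limma adjusted p = 0.594). Of all genes 0.215% passed under H2O2, 0.197% in untreated cells and 0.286% for the mean, so that count says little about 5 genes.

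By the root mean square difference over the 6 pair ratios, the genes nearest to NOB1 were GIP1 at 0.22 and IMD2 at 0.30. NOB1 was chosen for high ratios and was high in every pair. This distance therefore mostly ranks genes by the height of their ratio and shows no shared pattern. GIP1 (YBR045C), a meiotic regulator of protein phosphatase, lies beside ZTA1 and had mean ratios of 0.62 under H2O2 and 0.97 in untreated cells. IMD2 (YHR216W), an IMP dehydrogenase, had 0.42 under H2O2 and 0.40 in untreated cells. After them came a gap, with YHL050C at 0.56, MIX23 at 0.58 and CGR1 at 0.59. GIP1 and IMD2 passed as higher for the mean of both treatments, as did FMP23 (2.15), the other neighbour of ZTA1. Of the other chosen factors the nearest was RIO1 at 0.65, and 124 genes were nearer to NOB1 than it. By its mean ratio alone RIO1 ranked 116 from the highest.

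**Figure D4:**
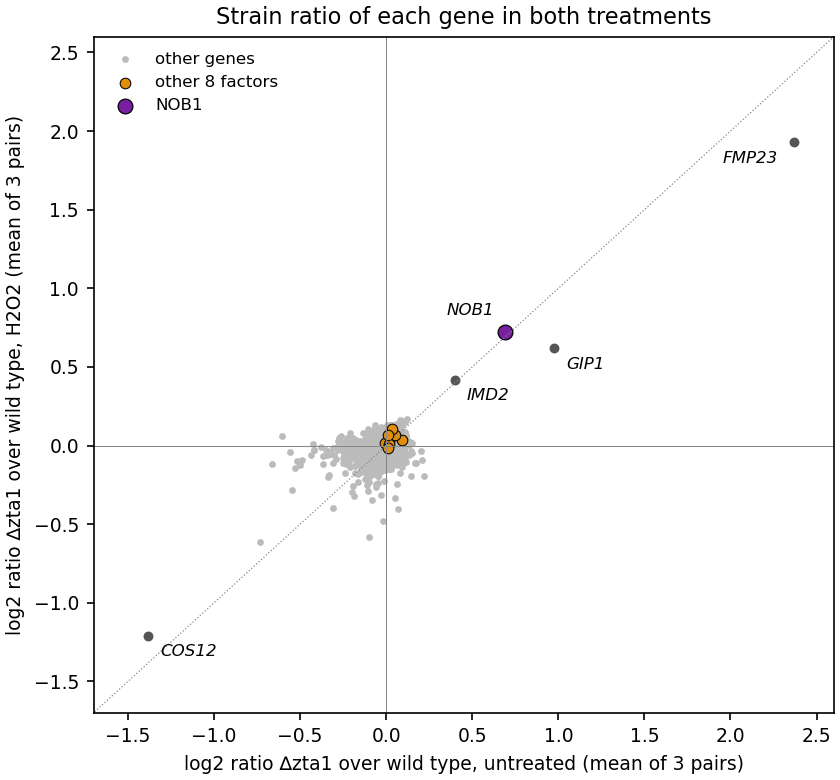
Mean log2 ratio of ∆zta1 over wild type for each gene under H2O2 (vertical axis) and in untreated cells (horizontal axis), each over 3 pairs; the dotted line marks equal ratios, and ZTA1 and YCL021W-A lie outside the axes. NOB1 (0.72 under H2O2, 0.69 untreated) lies near the line and apart from the other 8 factors, whose means reach at most 0.10 under H2O2 and 0.089 in untreated cells.

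The wider pathway was read from lists of genes. At the shares of all genes that passed (0.215% under H2O2, 0.197% in untreated cells and 0.286% for the mean), a count of 0 is what most lists of this size would hold, so the counts below are no result about a list. Of 17 other pre-40S assembly and export factors, 0 passed in any comparison, and their median over both treatments was 0.027, with 12 above 0. TRM112 and BUD23, which form a methyltransferase of the small-subunit rRNA, had means of 0.068 and 0.068 (SE 0.021 and 0.025), and PXR1, an activator of a processing helicase, had 0.084 (SE 0.036). Of 55 processome genes 0 passed, with 49 above 0 and a median of 0.029. The largest among the 3 with the smallest p was FAF1 at 0.092. Over all genes 2697 of 5594 were above 0, with a median of -0.0017.

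Nob1 is a nuclease, and of 20 genes for other rRNA processing nucleases and their subunits 0 passed. The median was 0.020 with 17 above 0, and POP1, of the RNase MRP, stood at 0.053 (SE 0.021). All means of that list lay between -0.027 and 0.060, against 0.71 for NOB1. The 56 genes of the finished 40S subunit, namely its ribosomal proteins and ASC1, had a median of 0.0015 with 29 above 0 and 0 passing. RPS21A was highest among the 3 named by p, at 0.092 (SE 0.031). Many of these genes have a near-identical copy, so their probes may share signal. For the large subunit, 0 of 20 late pre-60S factors passed, with 17 above 0 and a median of 0.034. JJJ1, a J-protein that recycles an export factor of that subunit, had the smallest adjusted p of the list at 0.265 (0.085 ± 0.019, SE).

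Nob1 was first described as a protein bound to the proteasome subunit Rpn12, and proteasome genes formed the last list. Of 39 subunits and assembly factors 14 were above 0 and 0 passed, beside 0.286% of all genes for the mean, with a median of -0.0077. RPN9, a subunit of the lid, had a mean of -0.077 and ADD66, an assembly chaperone, had -0.082 (SE 0.031 and 0.033).

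**Figure D5:**
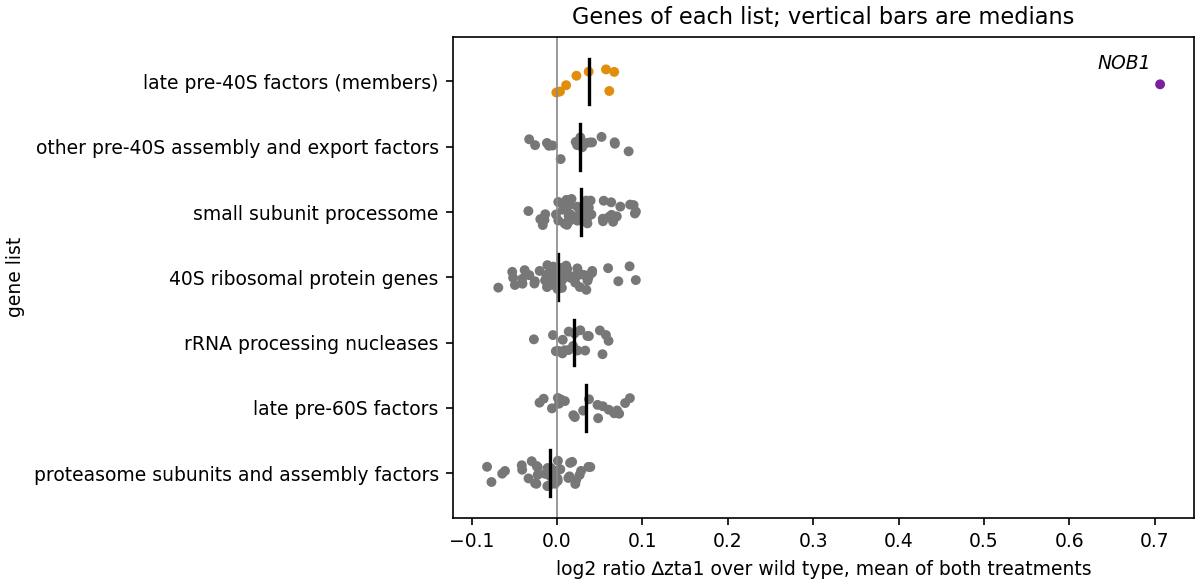
Log2 ratio of ∆zta1 over wild type, mean of both treatments (horizontal axis), for the genes of 7 lists (vertical axis), with a point per gene and a bar at the median of each list. NOB1 stands at 0.71, and every other gene shown lies between -0.082 and 0.092.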

How the data were processed

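The deposited values are 1 log2 ratio per probe and array, on 12 arrays. Per the submitters' processing notes limma was used; background correction and normalisation are not given in the sources used here. Direction was read from the values: ZTA1 is strongly negative in every column, dye swaps included. The base of the logarithm is not stated and was taken as 2, which every fold value here assumes. Column medians lay between -0.017 and 0.017. There are no intensities or flags, so signal over background is unknown and the number of arrays limits precision. Of 6256 probes 5620 had 1 gene, named through RefSeq assembly R64. The other 636 did not have exactly 1 gene and were left unnamed. Probes of a gene, then the 2 arrays of a pair, were averaged. The 6 pair means were fitted with limma 3.58.1 (R 4.3.3), with a spread common to both treatments and 4 residual degrees of freedom, two-sided, for each treatment, their difference and their mean. It was tested on simulated data with independent normal noise for each gene and pair. Those data held no dye effect and no movement shared between genes, so they do not cover either.

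The members and lists were chosen with earlier results of these data known. The text names all 9 members, ZTA1, 3 genes on either side of NOB1, the 5 genes nearest to it, and of each list any that passed plus at most 3 with the smallest p for the mean. Descriptions of the first array of replicate 3 say replicate 2, so titles set the pairs. Replicate numbers were not used to pair the treatments in the main fit. Alternatives were centring, scaling, single dyes, all arrays in 1 fit, probes apart, robust and weighted fits, pairs left out, a replicate block, 1 treatment alone and unnamed probes.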

Additional observations from a re-analysis of the deposited data

How the results depend on the processing

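Across all fits run the ratio of NOB1 lay between 0.66 and 0.76 for a single treatment and between 0.68 and 0.73 for the mean. All 12 arrays of NOB1 lay between 0.56 and 0.82, so its direction could not change in any of these fits. Its ratio under H2O2 was 0.76 with ∆zta1 in Cy5 only and 0.68 with ∆zta1 in Cy3 only. Leaving out each pair in turn gave 0.71 to 0.73 under H2O2, 0.66 to 0.74 in untreated cells, 0.69 to 0.73 for the mean and -0.020 to 0.062 for the difference. None of the other 8 factors passed in any fit that used both dyes. With ∆zta1 in Cy5 only, 929 genes passed under H2O2, 906 in untreated cells and 2063 for the mean, with 1 of the 8 each time, namely FAP7. With ∆zta1 in Cy3 only, 420, 562 and 1477 genes passed in that order, with 1, 1 and 2 of the 8, namely FAP7 and, for the mean, RIO1 (0.13). FAP7 turned sign with the dye: it was 0.25 in untreated cells with Cy5 only, and -0.19 under H2O2 and -0.23 for the mean with Cy3 only. These fits use 1 dye orientation, in which a dye effect does not cancel.

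For the mean, 30 genes passed with all 12 arrays in 1 fit and 28 with quality weights, against 16. Leaving out a pair gave 6 to 13 genes under H2O2, 9 to 12 in untreated cells, 11 to 22 for the mean and 0 to 3 for the difference. Of the H2O2 counts, 7 came from leaving out H2O2 replicate 1, and 6 from leaving out H2O2 replicate 3. The 3 for the difference came without untreated replicate 2 and were ZTA1, FMP23 and GIP1, a count whose cause was not tested. With the replicate number as a block 10 genes passed under H2O2, 10 in untreated cells, 13 for the mean and 0 for the difference. Deviations of same-numbered pairs correlated at -0.014, 0.031 and -0.27 across genes. Those of differently numbered pairs lay between -0.14 and 0.26, so these values cannot show whether same-numbered cultures were handled together. None of the other 8 passed with that block, and the ratios of NOB1 were 0.72 under H2O2 and 0.69 in untreated cells.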
